A study of Homo sapiens with 16 samples.

Results

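The collagen genes were defined as every gene on the array whose name reads COL, a number, A and a number, and 44 such genes were present among 42665 gene names, on 67 of 58201 probes. The arrays came from 16HBE, a human bronchial epithelial cell line immortalised with the SV40 large T antigen and not tumorigenic. Cells carrying wild-type MET (16HBE-WT) were compared with a clone in which exon 14 of MET had been removed from the transcript by CRISPR/Cas9 editing (16HBE-ex14, clone F). Every culture was kept for 2 h without serum. The cells were then left without HGF (groups 16HBE-WT and 16HBE-ex14) or given HGF, the ligand of the MET receptor, at 20 ng/ml for 24 h (groups 16HBE-WT+HGF and 16HBE-ex14+HGF), with 4 arrays in each of the 4 groups. Where 4 group values follow each other, they are in the order wild type, wild type with HGF, edited, edited with HGF. The edited cells were 1 clone, so what the clone carried besides the edit and the edit itself cannot be told apart. The labels do not name separate cultures, and p-values measure the spread between these arrays, in bulk RNA where fewer cells of a type and less RNA per cell cannot be told apart.

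Collagens are secreted or membrane-bound proteins built from 3 alpha chains that wind into a triple helix. Fibrillar collagens, made mainly by fibroblasts, form the fibres of connective tissue, while an epithelium contributes mainly to its own basement membrane. There, collagen IV chains form the sheet-like network, collagen VII anchors the basement membrane to the tissue beneath, and the transmembrane collagen XVII holds basal cells to it at hemidesmosomes. Several collagen IV genes lie head to head in pairs and are transcribed away from each other.

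Upstream sequences are shown for the collagen IV pairs with a changed member and for the transmembrane collagens that changed, from RefSeq (GRCh38.p14), 5′ to 3′ on the strand of the named gene. The table held 44 promoters of 32 collagen genes among 35116 promoters. COL4A4 (chr2:227164206-227164455, minus strand) and COL4A3 (chr2:227164374-227164623, plus strand) start 418 bases apart, and capitals mark the 82 bases that both 250-base windows share. COL4A1 and COL4A2 start 126 bases apart, and that whole stretch is shown on the COL4A1 strand (chr13:110307158-110307283, minus strand). In this stretch, in COL13A1 (chr10:69801656-69801905, plus strand) and in COL17A1 (chr10:104085881-104086130, minus strand), capitals mark a match, on either strand, to 1 of the 4 motifs given after the sequences.
COL4A4: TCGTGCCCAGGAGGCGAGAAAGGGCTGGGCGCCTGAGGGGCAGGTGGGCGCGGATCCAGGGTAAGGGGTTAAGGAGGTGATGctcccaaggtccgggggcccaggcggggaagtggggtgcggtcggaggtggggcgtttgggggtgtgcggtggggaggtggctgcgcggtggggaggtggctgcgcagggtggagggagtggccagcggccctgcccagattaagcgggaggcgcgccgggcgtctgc
COL4A3: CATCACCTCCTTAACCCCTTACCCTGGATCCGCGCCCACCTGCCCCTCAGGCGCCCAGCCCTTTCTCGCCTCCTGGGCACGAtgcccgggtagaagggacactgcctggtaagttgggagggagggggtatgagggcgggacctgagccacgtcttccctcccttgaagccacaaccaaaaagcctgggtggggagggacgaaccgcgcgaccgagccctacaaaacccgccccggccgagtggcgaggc
COL4A1 to COL4A2: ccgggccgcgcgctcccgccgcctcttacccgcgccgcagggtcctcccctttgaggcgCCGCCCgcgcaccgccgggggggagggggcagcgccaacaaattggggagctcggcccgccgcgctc
COL13A1: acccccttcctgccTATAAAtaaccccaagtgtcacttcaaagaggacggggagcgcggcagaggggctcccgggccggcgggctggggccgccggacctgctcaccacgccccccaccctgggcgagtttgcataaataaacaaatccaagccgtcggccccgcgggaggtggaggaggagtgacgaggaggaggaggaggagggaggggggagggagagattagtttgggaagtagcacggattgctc
COL17A1: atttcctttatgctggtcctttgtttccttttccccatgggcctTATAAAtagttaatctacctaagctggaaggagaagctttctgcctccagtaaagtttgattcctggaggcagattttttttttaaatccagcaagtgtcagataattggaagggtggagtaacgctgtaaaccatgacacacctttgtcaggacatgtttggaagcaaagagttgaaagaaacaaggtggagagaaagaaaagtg

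In the 250 bases upstream, GGGCGG (the GC box) occurred in 24 of the 44 collagen promoters (54.5%) and in 42.6% of all promoters. TATAAA (the TATA box) occurred in 8 (18.2%), COL13A1 and COL17A1 among them, against 10.7% of all. TGANTCA (the AP-1 site) was found in 1 collagen promoter (2.27%, 6.57% of all) and TGACGTCA (the CRE) in 0 (1.65% of all). None of these motifs contains another. A match describes letters and not a bound site, and its distance from the start of transcription was not considered.

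**Figure D1:**
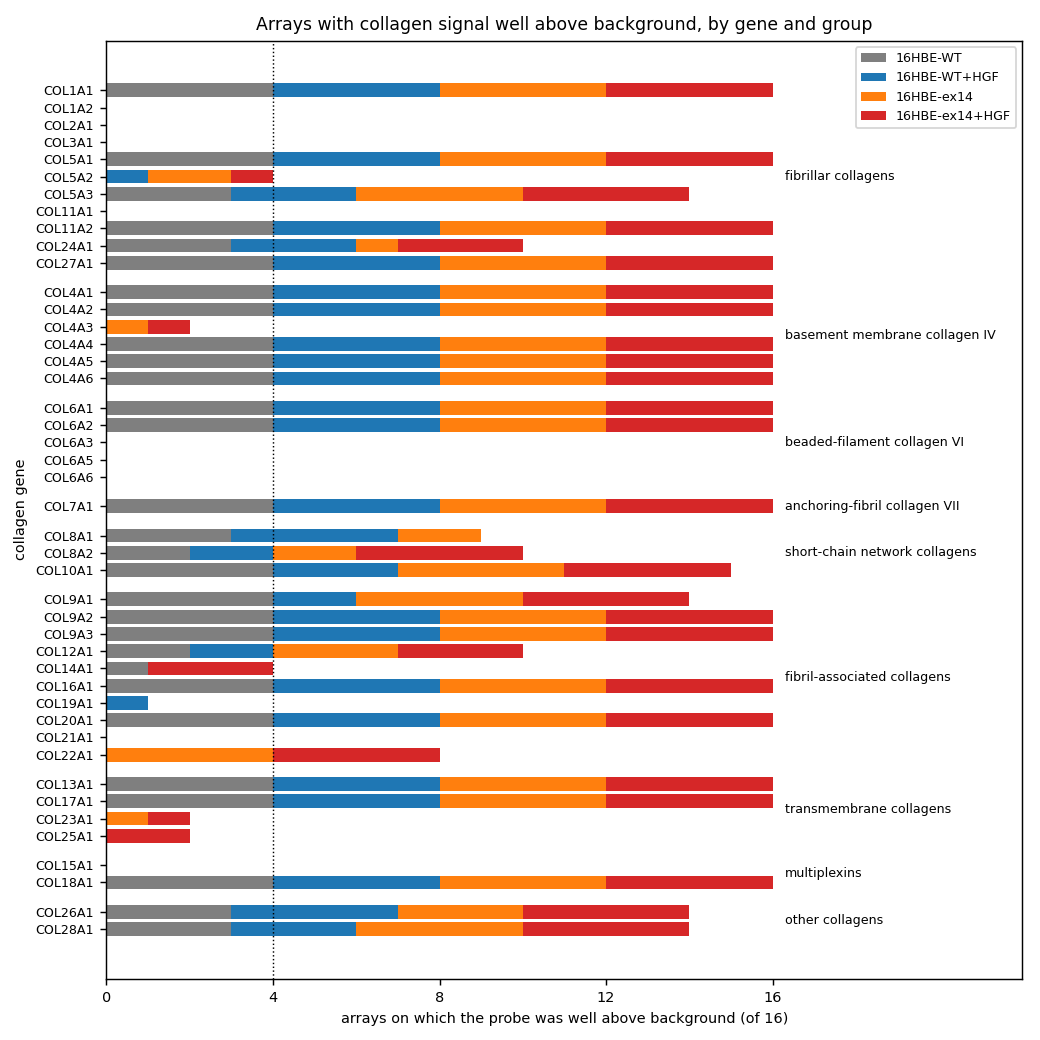
Number of arrays (of 16) on which each of the 44 collagen genes was well above background, by group, with genes ordered by collagen class and the probe detected on most arrays shown for each gene. The dotted line marks the 4 arrays needed for testing: 31 genes reached it, 19 were detected on all 16 arrays, and COL1A2, COL2A1 and COL3A1 on none.

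A signal was counted as present where the scanner software called it well above background. By this measure 19 collagen genes were present on all 16 arrays, 9 on none and 4 on fewer than 4 arrays. The 31 genes with a probe above background on at least 4 arrays were tested, through the tested probe with the highest mean. Each array showed 23 to 33 collagen genes above background, with 25 to 27, 23 to 28, 27 to 31 and 28 to 33 in the 4 groups. The share of all probes above background also differed, at 50.9% to 55.1%, 49% to 56.1%, 52.2% to 57% and 55.7% to 60.3%. Values are log2 intensities minus the 75th percentile of the array, an intensity of 140 to 263 across arrays, so that 0 is the level of that percentile and differences are log2 fold changes. They compare groups for 1 probe and do not rank genes. Across arrays, 49% to 60.3% of all probes were above background, and the lowest value above background lay between -4.95 and -3.77.

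Of 11 fibrillar collagens, 7 were tested and 4 were above background on no array. COL1A2, which encodes the second chain of type I collagen, COL2A1 and COL3A1 were above background on 0 of 16 arrays, as was COL11A1. COL3A1 averaged -6.22 ± 0.11, -6.09 ± 0.21, -6.50 ± 0.06 and -6.62 ± 0.13 (SD, n = 4 per group, as for every mean), all beneath the lowest detected values. COL1A1, the other type I chain, was nevertheless above background on all 16 arrays. It averaged -1.36 ± 0.46, -1.53 ± 0.30, -1.92 ± 0.39 and -2.12 ± 0.17 and no comparison called it (limma, Benjamini-Hochberg adjusted p = 0.0869 for 16HBE-ex14+HGF against 16HBE-WT+HGF). COL5A1, COL11A2 and COL27A1 were also above background on all 16 arrays, and the brightest COL5A1 probe averaged between 1.42 and 1.98 in the 4 groups. Of the chains of collagen VI, a beaded filament found around cells, COL6A1 and COL6A2 were present on all arrays, and COL6A3, COL6A5 and COL6A6 on none.

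Most of collagen IV was detected. COL4A1, COL4A2, COL4A4, COL4A5 and COL4A6 were above background on all 16 arrays, and COL4A3, whose chain assembles with those of COL4A4 and COL4A5, on 2. The multiplexin COL18A1, a basement membrane collagen whose end fragment is endostatin, was also present on all arrays. Its means ran from 4.67 to 4.98 over the 4 groups, and no comparison called it.

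The cells carried the markers of an epithelium. All 8 airway epithelial markers were above background on all 16 arrays, with a summed level between 10.78 and 11.10. Of 8 fibroblast markers, 5 were above background on 0 arrays, and PDGFRB and FAP on all 16. Another PDGFRB probe was above background on 0 arrays. LUM, a matrix proteoglycan of fibroblasts, was above background on all 8 16HBE-WT and 16HBE-WT+HGF arrays and on 0 of 8 16HBE-ex14 and 16HBE-ex14+HGF arrays. Its mean level was at least 3.06-fold lower in 16HBE-ex14 than in 16HBE-WT (means -6.60 and -2.94, limma adjusted p = 2.94e-06). With HGF it was at least 2.23-fold lower (-7.00 and -3.52, limma adjusted p = 3.7e-06). LUM qualified for testing through the wild-type arrays alone, and each minimum leaves out the spread between arrays. The summed fibroblast level was -1.14 to -0.52 in 16HBE-WT and -1.70 to -1.42 in 16HBE-ex14. With HGF it was -1.35 to -0.52 and -1.84 to -1.44. Its part in the genotype differences below was not tested. Of 6 endothelial markers 3 were above background on 0 arrays, and CDH5 and VWF on all 16. Other VWF probes were above background on 0 or 1 array. Of 5 blood cell markers on the array, CD14, CD3E and PTPRC were above background on all 16 arrays, and the list summed to between -0.56 and 0.39. The PTPRC probes disagreed, some being above background on all 16 arrays and others on 0. CD3E was called lower in 16HBE-ex14 than in 16HBE-WT (-0.98, limma adjusted p = 0.0242), and its part in the genotype differences was not tested either. MET itself averaged 4.97 ± 0.17, 5.00 ± 0.12, 5.10 ± 0.15 and 5.16 ± 0.10 and was called in no comparison. Its probe (hg19 chr7:116438290-116438349) lies downstream of exon 14 and does not check the loss of that exon.

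A gene was called where its limma adjusted p, over all 34599 tested probes, was below 0.05 and its fold change above 1.5. In 16HBE-ex14 against 16HBE-WT without HGF, 7 of 31 collagen genes were called (22.6%), against 9.25% of all 26368 tested genes. COL4A4 and COL22A1 were higher (4.51% of all genes), and COL17A1, COL4A1, COL7A1, COL9A2 and COL9A3 were lower (4.75% of all genes). COL22A1 was above background on no wild-type array, so it entered these counts through the edited arrays alone. With HGF in both genotypes, 9 of 31 were called (29%), against 10.7% of all genes. The 7 genes were called again, each in the same direction (100% of the 7 and 77.8% of the 9). COL13A1, higher, and COL8A1, lower, were called in addition, making 3 higher (5.3% of all genes) and 6 lower (5.36% of all genes). The median log2 fold change of the 31 genes was -0.16 without and -0.13 with HGF, beside -0.01 and 0.00 for all genes tested. With no scaling between arrays both medians turned positive, to 0.21 and 0.26, where the median of all genes moved to 0.36 and 0.39. The higher genes were then 4 of 5 called without HGF and 6 of 9 with HGF, against 2 of 7 and 3 of 9.

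**Figure D2:**
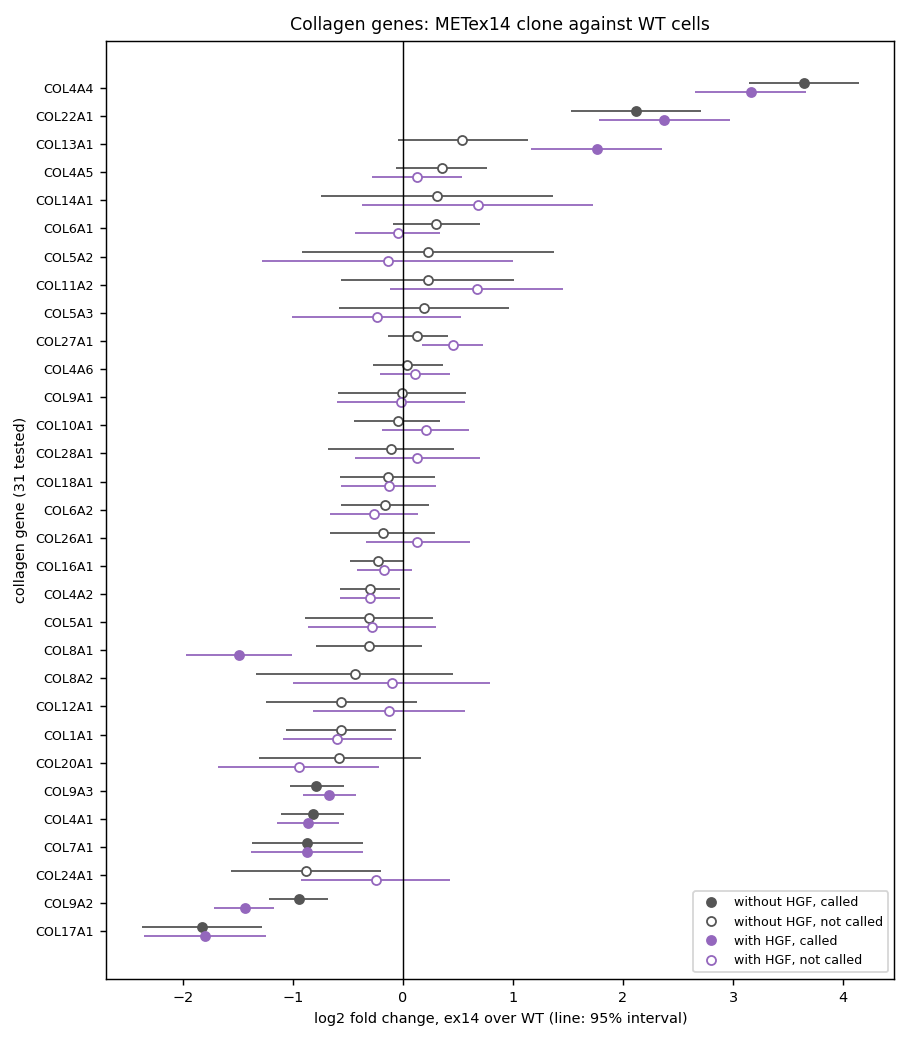
Log2 fold change of 16HBE-ex14 over 16HBE-WT (horizontal axis) for the 31 tested collagen genes, without HGF (grey) and with HGF (purple), with 95% intervals from limma. Filled points were called: COL4A4 lies at 3.64 and 3.16 and COL17A1 at -1.83 and -1.80, and most genes lie near 0 (COL22A1 and COL8A1 are dim, and only bounds hold for them).

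COL4A4, the alpha-4 chain of basement membrane collagen, was higher in the edited cells in both comparisons, by more than any other tested collagen gene detected in both groups compared. Its probe (hg19 chr2:227867464-227867523) was above background on all 16 arrays. In 16HBE-WT the arrays gave -2.67, -2.82, -1.96 and -3.24, and in 16HBE-ex14 they gave 0.79, 1.27, 0.65 and 1.14. The groups did not overlap, and the lowest 16HBE-ex14 array lay above the highest 16HBE-WT array. With HGF, the wild-type arrays gave -2.67, -2.74, -3.01 and -2.44 and the edited ones 0.65, 0.09, 0.39 and 0.63, again without overlap. The difference was 3.64 (SE 0.23, 12.4-fold, limma adjusted p = 2.11e-07) without HGF and 3.16 (SE 0.23, 8.91-fold, adjusted p = 7.43e-07) with HGF. Within the 2 slides it was 3.77 and 3.50 without HGF and 3.08 and 3.23 with HGF. Under the normexp background correction it fell to 2.27 and 1.82 and stayed called.

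COL4A3, the head-to-head partner of COL4A4 whose upstream window shares the capitals shown above, was too dim to test. It was above background on 0 of 8 wild-type arrays, 1 of 4 16HBE-ex14 arrays and 1 of 4 16HBE-ex14+HGF arrays. The group means were -6.30 ± 0.11, -5.93 ± 0.67, -4.88 ± 1.21 and -4.88 ± 0.81, within or beneath the range of the lowest detected values. Around COL4A4, 11 other genes were tested within 1000000 bases. IRS1, an adaptor of the insulin receptor, was the only one of them called without HGF, and was above background on all 8 edited and on 0 of 8 wild-type arrays. Its mean was at least 10.5-fold higher in the edited cells without HGF (limma adjusted p = 2.72e-06). With HGF it was at least 3.67-fold higher (limma adjusted p = 3.86e-06). Each minimum was set by the lowest detected value of each dim array and leaves out the spread between arrays. IRS1 qualified for testing through the edited arrays alone. DAW1 was called with HGF (0.91). RHBDD1, whose probe lies between those of IRS1 and COL4A4, differed by -0.04 and -0.03.

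COL4A1 was lower in the edited cells. It encodes the alpha-1 chain, which joins the alpha-2 chain of COL4A2 in the common collagen IV network (probe at hg19 chr13:110802347-110802406). The 16HBE-WT arrays gave 1.54, 1.33, 1.86 and 1.59, and the 16HBE-ex14 arrays 0.75, 0.78, 0.66 and 0.83. With HGF, values were 1.31, 1.27, 1.25 and 1.66 in wild-type cells and 0.47, 0.28, 0.77 and 0.51 in edited cells. Every edited array lay below every wild-type array. The difference was -0.82 (SE 0.13, 1.77-fold, limma adjusted p = 0.00061) without HGF and -0.86 (SE 0.13, 1.82-fold, adjusted p = 0.000364) with HGF. With no scaling between arrays it was -0.45 and -0.48 and was not called, nor was it called by limma's test against the fold limit (treat).

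COL4A2, which starts 126 bases from COL4A1, was not called. Its means were 5.44 ± 0.22, 5.33 ± 0.20, 5.14 ± 0.14 and 5.03 ± 0.07 in the 4 groups. The genotype difference was -0.30 (SE 0.13) both without and with HGF, with adjusted p = 0.12 and 0.116. COL4A5, the other chain of the COL4A3 and COL4A4 trimer, differed by 0.35 and 0.13 (adjusted p = 0.245 and 0.712). COL4A6, found with COL4A5 in another trimer, differed by 0.04 and 0.11. A second, dim COL4A6 probe to another transcript was called lower without HGF (fitted difference -1.48, limma adjusted p = 0.0111). It was above background on 2 of 4 16HBE-WT and 0 of 4 16HBE-ex14 arrays, so no minimum is given. The 2 probes therefore disagree.

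COL17A1, the hemidesmosomal collagen, was lower in the edited cells in both comparisons, by more than any other tested collagen gene detected in both groups compared. Its probe (hg19 chr10:105791083-105791142) gave 1.19, 1.27, 1.75 and 1.00 in 16HBE-WT and -0.67, 0.02, -0.73 and -0.71 in 16HBE-ex14. With HGF, the wild-type arrays gave 0.81, 0.80, 0.60 and 1.64 and the edited ones -0.31, -0.80, -1.03 and -1.19. Neither comparison had overlapping groups, although 16HBE-ex14 replicate 2 stood above the other 3 arrays of its group. The difference was -1.83 (SE 0.26, 3.54-fold, limma adjusted p = 0.000215) without HGF and -1.80 (SE 0.26, 3.47-fold, adjusted p = 0.000206) with HGF. Within slides it was -1.56 and -2.10 without HGF and -1.36 and -2.23 with HGF. A second probe, to another COL17A1 transcript, was also above background on all arrays but differed by 0.10 and -0.05 and was not called.

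KRT5, the keratin of basal airway cells, was also lower in the edited cells, but unlike COL17A1 it was called lower with HGF in them too. That fall was -2.32 (SE 0.19, limma adjusted p = 0.000147), where COL17A1 differed by -0.31 (adjusted p = 0.666). KRT5 averaged 2.62 ± 0.30, 2.00 ± 0.21, 0.05 ± 0.20 and -2.26 ± 0.35 in the 4 groups. It was lower in the edited cells by 5.95-fold without HGF (limma adjusted p = 6.29e-07) and by 19.2-fold with HGF (adjusted p = 3.26e-09). It was the one airway epithelial marker of 8 that was called, where 9.25% and 10.7% of all genes were called between genotypes without and with HGF. KRT19 was lower in edited cells (-0.58 and -0.39, limma adjusted p = 0.000426 and 0.00562), within the fold limit. CDH1 fell with HGF in edited cells (-0.58, limma adjusted p = 0.0347), also within it. For the other markers adjusted p was above 0.05. TP63, the transcription factor of basal cells, averaged between -3.81 and -3.37 in the 4 groups. Whether the share of basal-like cells had a part in the COL17A1 difference was not tested.

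COL7A1, the single chain of the anchoring fibrils (probe starting at hg19 chr3:48602401), was also lower. Values were 0.18, 0.40, 1.25 and 0.62 in 16HBE-WT and -0.55, -0.07, -0.23 and -0.16 in 16HBE-ex14. With HGF they were 0.38, 0.34, 0.29 and 1.17 in wild-type cells and -0.04, -0.57, -0.16 and -0.52 in edited cells. The groups did not overlap, but in each wild-type group 1 array stood well above the rest. The difference was -0.87 (SE 0.24) without HGF (1.82-fold, limma adjusted p = 0.0197) and with HGF (1.83-fold, adjusted p = 0.0172). Without 16HBE-WT replicate 3 or 16HBE-ex14 replicate 1 the first was no longer called, nor was the second without 16HBE-WT+HGF replicate 4 or 16HBE-ex14+HGF replicate 2, with differences of -0.66 to -0.65 where the high wild-type array was left out. Both calls were also lost under treat, with no scaling (-0.49 and -0.48) and with scaling to the spike-in controls (-0.76 and -0.81), and the first with scaling to the array median (-0.73).

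**Figure D3:**
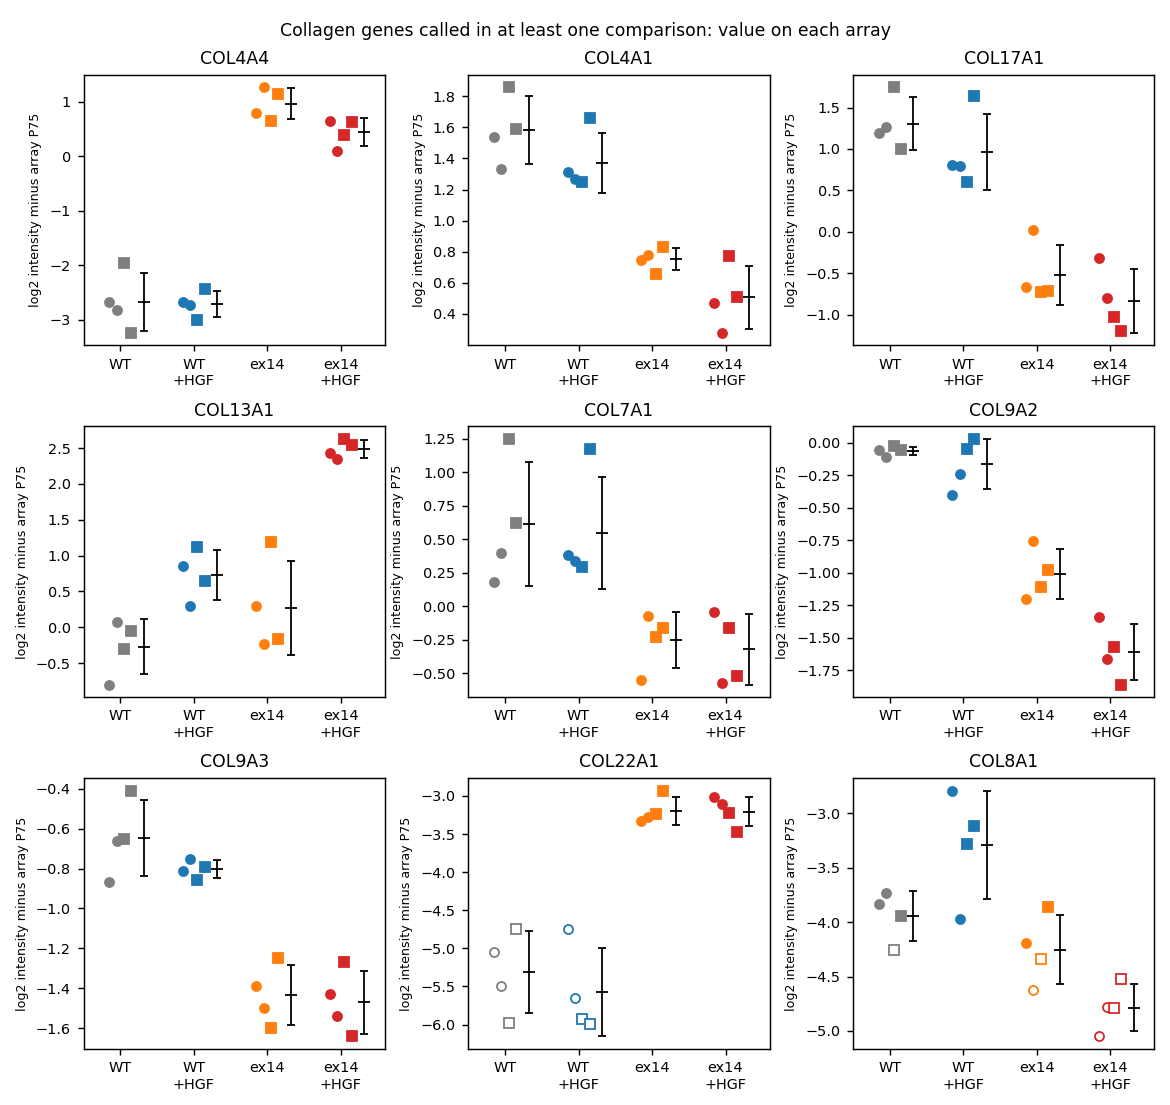
Log2 intensity minus the 75th percentile of the array for the 9 collagen genes called in at least 1 comparison, by group, with 1 point per array (circles, slide 1; squares, slide 2; open symbols, not well above background) and the mean ± SD (n = 4) beside them; vertical axes differ between panels. COL4A4 and COL22A1 separate upwards by genotype, COL4A1, COL17A1, COL7A1, COL9A2 and COL9A3 separate downwards, and the 4 16HBE-ex14+HGF arrays of COL13A1 lie between 2.34 and 2.63, above all other arrays.

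Collagen IX is a fibril-associated collagen, best known from cartilage, built from the chains of COL9A1, COL9A2 and COL9A3. COL9A2 and COL9A3 were lower in the edited cells, and COL9A1 was dim and did not pass the test. COL9A2 (hg19 chr1:40766380-40766439) gave -0.06, -0.11, -0.03 and -0.06 in 16HBE-WT and -1.20, -0.76, -1.11 and -0.98 in 16HBE-ex14. With HGF it gave -0.40, -0.24, -0.05 and 0.03 in wild-type cells and -1.34, -1.66, -1.57 and -1.86 in edited cells. The edited arrays lay below the wild-type arrays in both comparisons. The difference was -0.95 (SE 0.13, 1.93-fold, limma adjusted p = 0.000155) without HGF and -1.44 (SE 0.13, 2.72-fold, adjusted p = 3.86e-06) with HGF. The first was not called with no scaling (-0.58) or under treat.

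COL9A3 (hg19 chr20:61472271-61472330) showed smaller differences. The arrays gave -0.87, -0.66, -0.65 and -0.41 in wild-type cells and -1.39, -1.5, -1.60 and -1.25 in edited cells. With HGF they gave -0.81, -0.75, -0.86 and -0.79 in wild-type and -1.43, -1.54, -1.27 and -1.64 in edited cells. No edited array reached the wild-type range. The difference was -0.79 (SE 0.11, 1.72-fold, limma adjusted p = 0.000257) without HGF and -0.67 (SE 0.11, 1.59-fold, adjusted p = 0.000758) with HGF. Both calls were lost under the normexp correction (-0.52 and -0.47, within the fold limit), with no scaling (-0.42 and -0.28) and under treat, and the second also when arrays were scaled to their median (-0.57). COL9A1 differed by -0.01 and -0.02 (SE 0.27).

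COL22A1, a fibril-associated collagen of tissue junctions, was detected in the edited cells alone. Its probe to another transcript (hg19 chr8:139790150-139790209) was above background on all 8 edited arrays and on 0 of 8 wild-type arrays. Values were -3.33, -3.28, -3.24 and -2.93 in 16HBE-ex14, and -3.02, -3.11, -3.22 and -3.47 in 16HBE-ex14+HGF. The wild-type arrays gave -5.05, -5.49, -5.98 and -4.74 without HGF and -4.74, -5.65, -5.93 and -5.99 with HGF, all lower than every edited array, and they give only a bound. For a probe with no array above background in 1 group and all 4 above it in the other, a fold is given as a minimum, as for IRS1. The lowest detected value of each dim array was taken where the probe lay beneath it. Such a minimum compares group means under the main processing and leaves out the spread between arrays. On that basis the mean of COL22A1 was at least 2.14-fold higher without HGF (limma adjusted p = 0.000121) and at least 1.91-fold higher with HGF (adjusted p = 4.05e-05). The probe qualified for testing through the edited arrays alone, which these p-values do not take into account. Under the normexp correction the fitted differences were 0.18 and 0.14 and were not called, and the probe to the RefSeq COL22A1 mRNA was above background on 0 of 16 arrays.

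COL8A1, a short-chain collagen of basement membranes beneath endothelia (hg19 chr3:99514765-99514824), was called lower in the edited cells with HGF. It was above background on 3, 4, 2 and 0 arrays of the 4 groups. The 16HBE-WT+HGF arrays gave -2.79, -3.97, -3.28 and -3.12, and the 16HBE-ex14+HGF arrays -5.05, -4.78, -4.79 and -4.52. Without HGF, values were -3.83, -3.73, -4.26 and -3.94 in wild-type and -4.19, -4.62, -4.34 and -3.86 in edited cells, which overlapped. By the same kind of minimum, the mean level with HGF was at least 2.62-fold lower in the edited cells (limma adjusted p = 0.000301). Under the normexp correction that difference was -0.46, within the fold limit, and was not called.

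The other 24 collagen genes ranged from -0.88 (COL24A1) to 0.54 (COL13A1) without HGF, and none of them had groups that did not overlap. With HGF, the 22 others ranged from -0.95 (COL20A1) to 0.68 (COL14A1). In 3 of these, COL1A1, COL4A2 and COL27A1, the groups did not overlap. How many of all genes had such groups was not counted, and 31.6% of all genes had an unadjusted limma p below 0.05 there. COL27A1, a fibrillar collagen of cartilage, reached an adjusted p of 0.0226 there (limma) with a difference of 0.45, within the fold limit. Probes of 1 gene disagreed in further cases, where 9.4% of all tested probes were called without HGF and 10.8% with HGF. For COL5A1, a minor chain of type V fibrils, a probe that was not the brightest was called lower without HGF (-1.13, limma adjusted p = 0.00955), while the brightest differed by -0.31. For COL6A2 a second dim probe was called higher without HGF, but was above background on 0 of 4 16HBE-WT arrays, and its bound gave no fold. For COL20A1 a dim probe, above background on 1 of 4 16HBE-WT+HGF arrays, was called higher with HGF (fitted difference 2.14). The brightest COL20A1 probe differed by -0.95.

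HGF changed few collagen genes. In 16HBE-ex14, 2 of 31 were called (6.45%), against 2.11% of all genes. COL13A1 rose (1.13% of all genes rose) and COL9A2 fell (0.986% of all genes fell). In 16HBE-WT, limma called 0 of 31 collagen genes and 0% of all genes. COL13A1 and COL8A1 had an unadjusted p below 0.05 there (6.45%, against 4.71% of all genes), and the smallest adjusted p of a collagen gene was 0.864. The median log2 fold change of the 31 genes was -0.07 in 16HBE-ex14 and -0.08 in 16HBE-WT, beside 0.06 and 0.04 for all genes. The wild-type and edited responses have no array in common.

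COL13A1 encodes a transmembrane collagen found at cell adhesion sites and at the neuromuscular junction. Its probe (hg19 chr10:71718811-71718870) was above background on all 16 arrays. It gave 0.29, -0.24, 1.19 and -0.16 in 16HBE-ex14 and 2.43, 2.34, 2.63 and 2.54 in 16HBE-ex14+HGF. All treated arrays lay above all untreated ones, and 16HBE-ex14 replicate 3 was the highest untreated array. The increase was 2.22 (SE 0.28, 4.65-fold, limma adjusted p = 0.00146), and within slides 2.37 and 2.07. Tested against the fold limit itself (treat), it missed the threshold (adjusted p = 0.0551).

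In wild-type cells COL13A1 gave -0.80, 0.07, -0.31 and -0.06 without HGF and 0.86, 0.30, 1.12 and 0.65 with HGF. The groups did not overlap there either, which among the 31 genes in 16HBE-WT held for COL13A1 alone. The share of all genes with such groups was not counted. The difference was 1.01 (SE 0.28, 2.01-fold), with a limma adjusted p of 0.864. The response of the edited cells exceeded that of the wild-type cells by 1.21 (95% interval 0.37 to 2.06), with an unadjusted p of 0.00815 and an adjusted p of 0.832, so a difference between genotypes in the response was not called. With HGF in both, COL13A1 was 3.38-fold higher in the edited cells (1.76, SE 0.28, adjusted p = 0.000468), and without HGF it differed by 0.54 (adjusted p = 0.21).

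Genes near COL13A1 also differed between genotypes. Of 28 other genes tested within 1000000 bases of its probe, 7 were called higher and 0 lower in the edited cells without HGF, where 4.51% of all genes were higher. With HGF 6 were higher and 1 lower, where 5.3% of all genes were higher and 5.36% lower. Their median difference was 0.34 without and 0.42 with HGF, and their median HGF response in edited cells was 0.05. Around COL9A2, 45 genes had a median genotype difference of -0.22 without and -0.19 with HGF. Of these, 3 and 4 were called lower, against 4.75% and 5.36% of all genes. In each comparison 2 were called higher, against 4.51% and 5.3% of all genes. Around the other 7 called collagen genes the median lay between -0.08 and 0.17. The part of such regional differences in the values of the collagen genes was not tested.

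**Figure D4:**
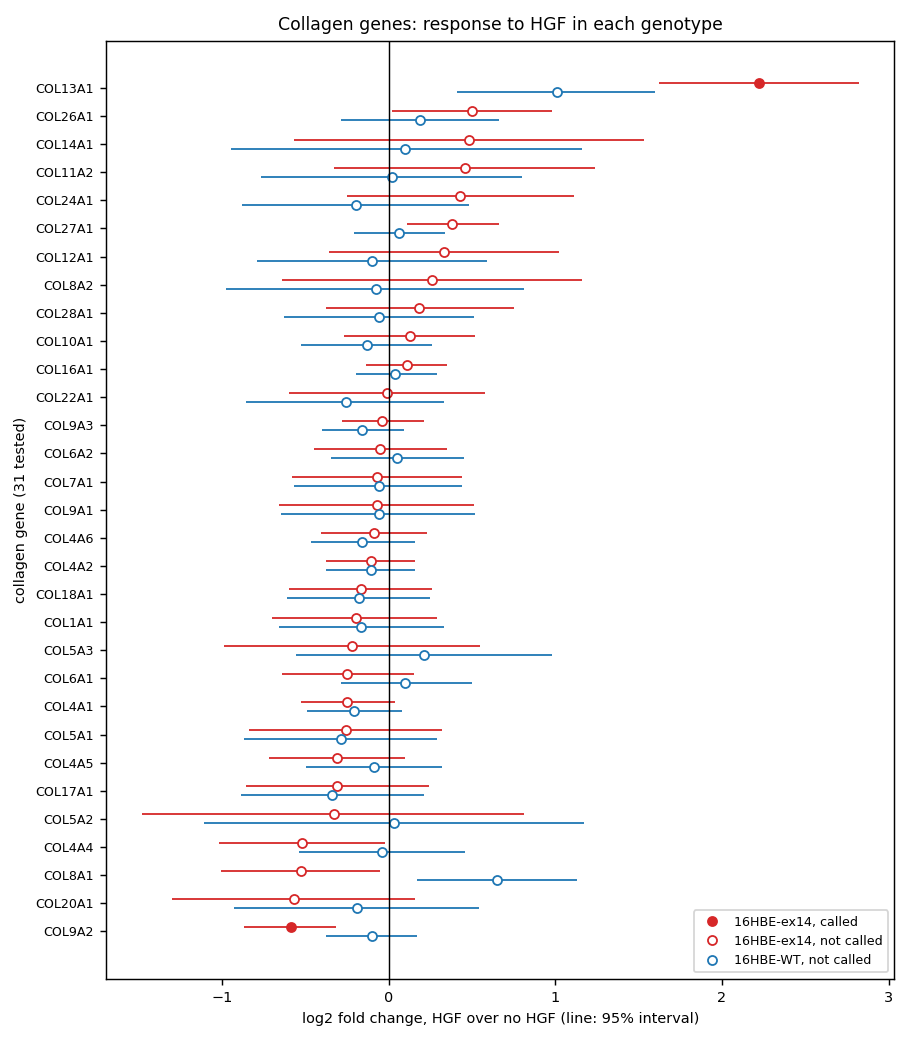
Log2 fold change of HGF over no HGF (horizontal axis) for the 31 tested collagen genes in 16HBE-ex14 (red) and 16HBE-WT (blue), with 95% intervals from limma. The filled points are the called genes, COL13A1 at 2.22 and COL9A2 at -0.59 in 16HBE-ex14, and no gene was called in 16HBE-WT (COL8A1 and COL22A1 are dim, and their points are fitted values).

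COL9A2 fell by 0.59 on the log2 scale with HGF in the edited cells (SE 0.13, 1.51-fold, limma adjusted p = 0.0211), from the values given above, which did not overlap. Its fold lay just past the limit of 1.5. The call was lost under 6 of 15 other settings and when 16HBE-ex14 replicate 2 or 4, or 16HBE-ex14+HGF replicate 2, 3 or 4, was left out. Differences ran from -0.75 to -0.33 over all 15 settings, and from -0.68 to -0.51 with each of the 16 arrays left out. In wild-type cells COL9A2 differed by -0.10 (adjusted p = 1).

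For the difference between the 2 HGF responses, limma called 0 of 31 collagen genes and 0% of all genes. An unadjusted p below 0.05 was reached by 3 collagen genes (9.68%, against 4.6% of all genes). These were COL8A1, COL13A1 and COL9A2. COL8A1 had the smallest adjusted p (0.603). It was not above background in 16HBE-ex14+HGF, so the size of that difference is not given. For HGF in edited cells it was not called (2 of 4 16HBE-ex14 arrays above background, limma adjusted p = 0.288), and no minimum is given. In wild-type cells it differed by 0.65 with HGF (adjusted p = 0.893), which was not called either. COL9A2 responses differed by -0.49 (95% interval -0.88 to -0.11, adjusted p = 0.941).

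Collagen chains are hydroxylated, glycosylated and folded in the endoplasmic reticulum before secretion. Of 23 genes listed for these steps, 17 could be tested. PLOD2 and PLOD1, lysyl hydroxylases that prepare collagen for cross-linking, were lower in the edited cells. PLOD2 averaged 3.75 ± 0.09, 3.75 ± 0.27, 2.56 ± 0.05 and 2.58 ± 0.15 in the 4 groups. Its difference was -1.20 without and -1.16 with HGF (SE 0.12, limma adjusted p = 1.49e-05 and 1.62e-05), and that of PLOD1 was -0.78 and -0.67 (SE 0.13). COLGALT1, a collagen galactosyltransferase named although it fell outside the limit of 5 genes per list, was the third gene lower without HGF, by -0.60.

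P3H2, a prolyl 3-hydroxylase of basement membrane collagens, fell with HGF in the edited cells (-0.90, SE 0.12, limma adjusted p = 0.0018) and was lower in them than in wild-type cells with HGF (-1.17, adjusted p = 1.81e-05). PPIB and P4HB, a prolyl isomerase and the beta subunit of prolyl 4-hydroxylase, were the 2 genes higher with HGF in edited than in wild-type cells, by 0.80 (SE 0.20) and 0.62 (SE 0.11). In sum 3 of 17 genes were lower without HGF (4.75% of all genes were), and with HGF 3 were lower and 2 higher (5.36% and 5.3% of all genes). The median difference of the list was -0.05 without and 0.11 with HGF, and its median HGF response in edited cells was 0.22. SERPINH1, the collagen chaperone HSP47, was called in no comparison.

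Outside the cell, BMP1 and its relative TLL1 trim procollagen, and the lysyl oxidases cross-link it. Of 13 listed genes, 7 were tested. BMP1 was lower in the edited cells (-1.14 without and -1.02 with HGF, SE 0.12), as was LOXL1 (-1.26 and -1.05, SE 0.12). TLL1 was above background on the 8 edited arrays and on no wild-type array, so it qualified for testing through the edited arrays alone. Its means were -2.94 ± 0.30 and -3.20 ± 0.23 in edited cells, at least 2.56-fold higher without HGF (limma adjusted p = 1.06e-08) and at least 1.92-fold higher with HGF (adjusted p = 3.84e-08). LOXL2 fell with HGF in the edited cells (-0.84, SE 0.15, adjusted p = 0.00878), the 1 gene of this list called for HGF. Of all genes, 0.986% fell with HGF in the edited cells. In all 1 gene of the list was higher and 2 lower without HGF (4.51% and 4.75% of all genes), and 1 higher and 3 lower with HGF (5.3% and 5.36% of all genes). The median difference was -0.29 without and -0.18 with HGF.

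Of 9 collagen receptor genes, 7 were tested. ITGA2 and ITGA10, alpha chains of collagen-binding integrins, rose with HGF in the edited cells, by 1.17 (SE 0.27, limma adjusted p = 0.031) and 1.08 (SE 0.26, adjusted p = 0.0361). ITGA10 averaged -3.03 ± 0.33, -2.82 ± 0.30, -1.99 ± 0.60 and -0.91 ± 0.23, and was also higher in edited than in wild-type cells without HGF (1.04) and with HGF (1.90). ITGA1 was called higher in both genotype comparisons, but was above background on 4 of 16 arrays, all from edited cells, and its bound gave no fold. ITGB1, the shared beta chain, and DDR1, a collagen-binding kinase, were called in no comparison. The list thus had 2 of 7 genes higher without HGF, 3 with HGF and 2 for HGF in edited cells, ITGA1 among the first 2 counts. Of all genes, 4.51%, 5.3% and 1.13% were higher in these comparisons. In the list 0 were lower, and the medians were 0.22, 0.34 and 0.04.

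Among 10 collagen-cleaving proteases, 8 were tested. MMP1, the interstitial collagenase, averaged -4.65 ± 0.52 in 16HBE-ex14, where 1 of 4 arrays was above background, and -0.31 ± 0.62 in 16HBE-ex14+HGF, where all 4 were. That increase was 4.34 (SE 0.38, limma adjusted p = 0.000155). In wild-type cells MMP1 was above background on 0 of 4 arrays without HGF and 3 of 4 with HGF. The fitted difference there was 0.80 (95% interval -0.01 to 1.62) and was not called, and no minimum is given. The difference between the responses was not called (adjusted p = 0.213). MMP9, a gelatinase that also cuts collagen IV, rose by 1.44 in edited cells (SE 0.27, adjusted p = 0.0112). MMP14, the membrane-bound collagenase, was lower in the edited cells without HGF (-0.69, SE 0.14, adjusted p = 0.00259). The medians of the 8 genes were -0.01 without HGF, 0.03 with HGF and 0.01 for HGF in edited cells.

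**Figure D5:**
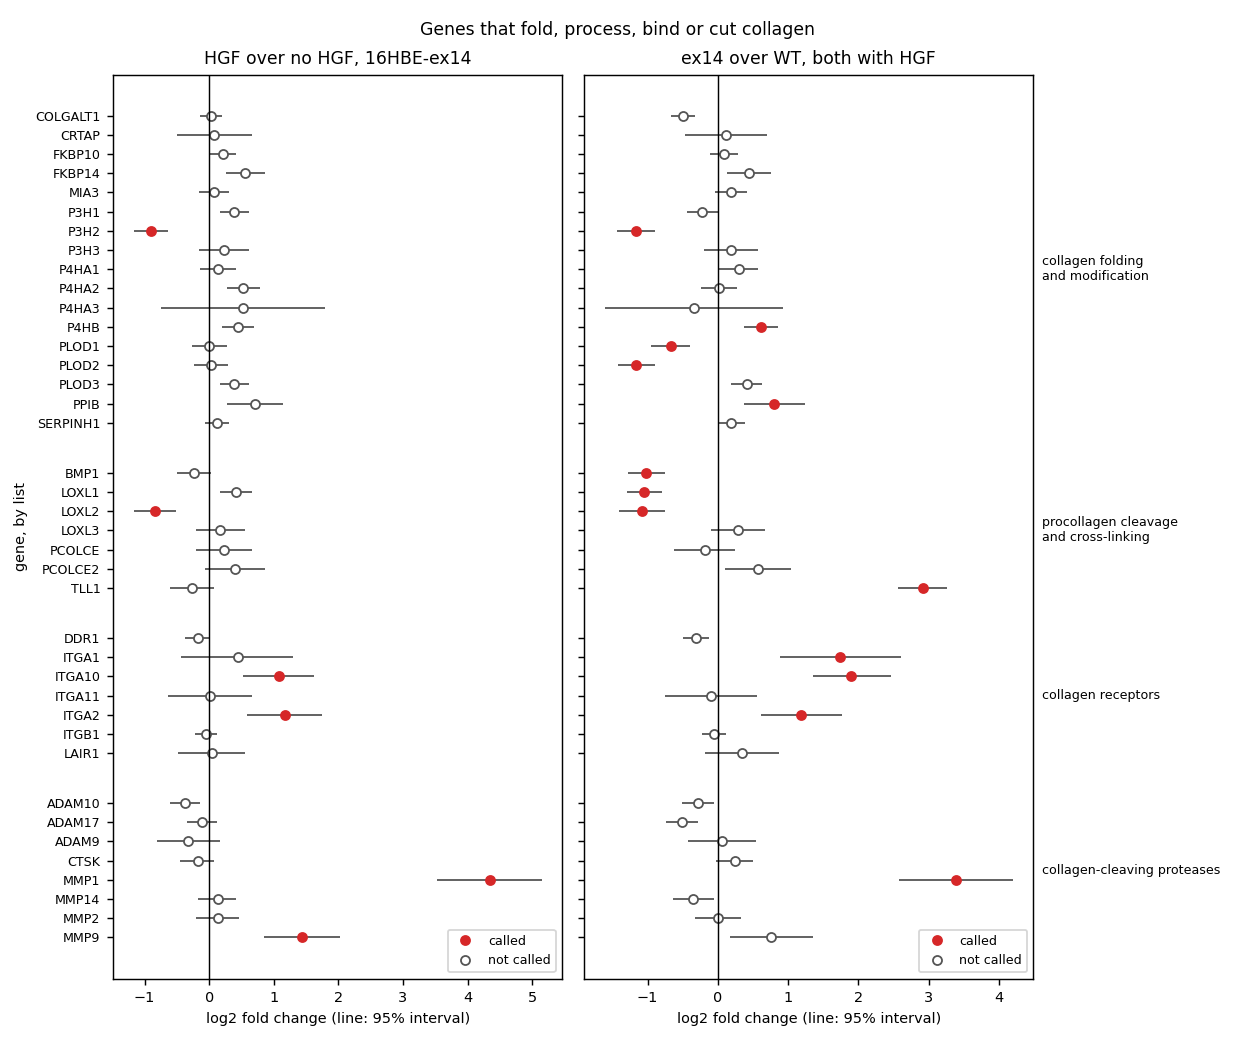
Log2 fold change with 95% intervals from limma for the tested genes that fold, process, bind or cut collagen, for HGF in 16HBE-ex14 (left) and for 16HBE-ex14+HGF over 16HBE-WT+HGF (right); filled points were called. MMP1 lies farthest to the right in both panels, at 4.34 and 3.39, and PLOD2, BMP1, LOXL1 and LOXL2 lie to the left in the right panel (points of TLL1, ITGA1 and other dim probes are fitted values).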

How the data were processed

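Gene expression was measured on 16 one-colour Agilent 60-mer arrays. The deposited values are processed intensity signals from Agilent Feature Extraction 10.7.3.1, which the authors made by background subtraction and detrending within each array, with no scaling between arrays (per the file headers, hg19 probe positions); the deposited series table holds the same numbers and was used only for that comparison. Log2 of the deposited intensity minus the 75th percentile of the array over non-control spots was used, control and outlier-flagged spots were left out, and spots of 1 probe were averaged. No depth exists for arrays, whose number (4 per group) limits the precision.

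Probes that passed the background call on 4 or more of the 16 arrays were fitted with limma 3.58.1 in R 4.3.3 over all 4 groups, with Benjamini-Hochberg adjustment over all tested probes, and called at adjusted p below 0.05 and a fold above 1.5. The steps were tested on simulated data. The brightest tested probe stood for a gene. The collagen genes, the gene lists and the tests were chosen with earlier results of these data known. Values per array were given for collagen genes called in any comparison, group means for partner chains and type I and III collagens, and from each list up to 5 called genes with the largest changes. Replicate numbers follow the order in which the arrays are listed, since the labels give none, and only name arrays. The study's methods describe 4 replicates made a week apart, but the week of each array was not given in the sources used here. Other background corrections, scalings, filters, blocks and left-out arrays were tried. Promoter sequences came from RefSeq (GRCh38.p14) and were read with Python 3.11.15. No genome annotation of hg19 was used here.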

Additional observations from a re-analysis of the deposited data

Results flagged for a closer look

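Of 36 groups of 4 arrays (9 named collagen genes in 4 groups), 3 held an array far from the other 3, where chance flags about 1 group in 20. COL4A1 in 16HBE-WT+HGF replicate 4 read 1.66, with the other 3 arrays at 1.25 to 1.31. COL7A1 in the same array read 1.17, with the others at 0.29 to 0.38. COL17A1 in 16HBE-ex14 replicate 2 read 0.02, with the others at -0.73 to -0.67.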

How the results depend on the processing

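Counts of called genes were recomputed under 16 other settings and single values under 15, and both without each of the 16 arrays. The counts of collagen genes called without HGF (7) and with HGF (9) between genotypes stayed within 1.5 times of these values, except that limma's test against the fold limit (treat) called 3 without HGF. HGF in 16HBE-ex14 called 2 genes, and 1 under the normexp correction, the E1A spike-in scaling, no scaling, no filter on dim probes or only the arrays of the compared groups, and 0 under treat. Without 1 array the counts ranged from 1 to 2 for HGF in 16HBE-ex14 (1 without 16HBE-ex14 replicate 2 or 4 or 16HBE-ex14+HGF replicate 2, 3 or 4), 6 to 8 between genotypes without HGF and 8 to 10 with HGF. HGF in 16HBE-WT and the difference of the responses gave 0 in every setting.

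Of 558 recomputed values for the 18 called differences, 519 kept their call, 39 lost it and 0 reversed. With no scaling, the higher genes were 4 of 5 called without HGF and 6 of 9 with HGF, as the median of all genes rose by over 0.1. Slide as a block, and the replicate block of slide and array row, gave 2, 0, 8, 10 and 0 calls for HGF in 16HBE-ex14 and 16HBE-WT, genotype without and with HGF, and the difference of responses, with COL24A1 gained without HGF and COL20A1 with HGF. Deviations from group means correlated at 0.03 to 0.32 between arrays of 1 row, over 0.1 in 20 of 24 pairs, and 4 of 16 arrays correlated best with their own row. Whether a row holds 1 weekly replicate is not given in the sources used here. All 16 correlated best with an array of their own slide.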
